A study of Mus musculus with 72 samples.

Results

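The 36 mouse genes described here encode the machinery that copies DNA and the enzymes that make its building blocks. They comprise 6 subunits of the MCM helicase, 7 factors of origin licensing and helicase activation, 7 subunits of the DNA polymerases and primase, 6 of the sliding clamp and its loader, 6 of lagging-strand processing, single-strand binding and chromatin assembly, and 4 enzymes of deoxynucleotide synthesis. They were chosen by gene symbol, and no measured value enters that rule, but the choice was made with earlier results of these data known. All 36 were among the 25124 genes of the RNA table, and all 36 passed the filter on low values that left 10789 genes for testing. Chromatin accessibility was read from the 88 of 51983 ATAC-seq peaks that the deposited annotation names after 1 of these genes and places within 50 kb of its start site. 35 of the 36 genes had such a peak, the exception being Mcm4, and 34 of the 88 peaks lay within 1 kb of a start site.

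As background, each origin of replication is licensed when the origin recognition complex, Cdc6 and Cdt1 load the ring-shaped MCM helicase onto DNA. Cdc45 and the GINS complex later join the ring and turn it into the active helicase, after which DNA polymerase alpha with primase starts each strand and polymerases delta and epsilon, held on DNA by the PCNA clamp, extend it. Many of these genes are transcribed in a burst as a cell enters S phase, under E2F transcription factors that RB family proteins hold in check. NCOR and SMRT are related corepressor scaffolds that bring histone deacetylase to transcription factors, in macrophages mostly to nuclear receptors and other signal-dependent factors.

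The cells were RAW264.7, a mouse line with macrophage properties, and carried a lentiviral short hairpin. There were 3 groups: shSMRT cells, with a hairpin against SMRT, shNCOR cells, with a hairpin against NCOR, and shGFP cells, whose hairpin targets a protein the cells do not make. All 3 were kept in ordinary growth medium without treatment, and each group had 3 polyA RNA-seq and 3 ATAC-seq libraries. The series has 72 samples, and its 54 ChIP-seq or CUT&Tag samples were left out. Because each hairpin entered its own infected population, loss of the target and other differences between those populations cannot be told apart, and both knockdowns are set against the same shGFP libraries. The labels do not tell whether replicates were separate cultures, and the p-values therefore reflect the spread between libraries alone, which may be technical.

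Ncor1, the gene of NCOR, checked the labels of the shNCOR RNA libraries. It cannot tell shSMRT from shGFP cells and does not bear on the ATAC libraries. It had 18.9, 20.2 and 20.2 reads per kilobase of exon per M reads (RPKM), M being mega in shSMRT cells, 3.61, 4.20 and 4.30 RPKM in shNCOR cells and 18.4, 20.2 and 18.7 RPKM in shGFP cells. The shNCOR libraries lay apart from the other 6, and their mean fell by 78.8% against that of shGFP cells. RNA depth was 39.1 to 49.1 M reads a library, of which 90.9% to 92.8% fell in exons. ATAC depth was 6.06 to 10.84 M reads, and 47.6% to 49.9% of them fell in peaks in shSMRT libraries, 54.7% to 55.7% in shNCOR libraries and 50.6% to 54.0% in shGFP libraries. Of 15 macrophage markers, 14 passed the filter and Mertk lay at or under 0.041 RPKM in every library. Their summed level averaged 11450 RPKM in shSMRT cells, 9414 RPKM in shNCOR cells and 8164 RPKM in shGFP cells. Most of that sum was Lyz2 alone, which ran between 5150 and 8363 RPKM over all libraries. The summed lists for lymphocytes, for neutrophils and mast cells, and for fibroblasts and epithelium were each at most 1.70 RPKM in every library.

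E2F-type words, for which this gene family is known, were found in some of the promoter sequences but not in most. The 8-base words TTTCCCGC, TTTGGCGC, TTTCGCGC and TTTGCCGC were searched on both strands of RefSeq promoter windows (GRCm38.p6), each running from 250 bases before to 50 bases after a start. Windows were held for 30 of the 36 genes, 35 windows in all. At least 1 word occurred in 11 of the 35 (31.4%), against 2.26% of all 32851 windows and 4.34% of the 10693 windows of tested genes. The 11 belong to Mcm3, Mcm5, Mcm6, Mcm7, Cdt1, Cdc6, Gins3, Pola1, Pold1, Rfc3 and Lig1. The Cdc6 window (chr11:98907901-98908200, plus strand) begins downstream of the start of the Cdc6 transcript measured here (98907801). Its word therefore lies inside that transcript's span and not upstream of it. More than 1 match was found in the windows of Mcm3, Mcm5, Mcm6, Mcm7 and Rfc3. Printed are those of Mcm3, Mcm6, Mcm7 and Rfc3, and then that of Gins3, a gene whose RNA was called in opposite directions in the 2 knockdowns, as was Rfc1 by smaller differences. Capitals mark the words, or their reverse complements, and in Mcm6 the first run of capitals holds 2 overlapping matches. All 5 windows overlap an ATAC peak.
Mcm3, chr1:20820263-20820562, minus strand: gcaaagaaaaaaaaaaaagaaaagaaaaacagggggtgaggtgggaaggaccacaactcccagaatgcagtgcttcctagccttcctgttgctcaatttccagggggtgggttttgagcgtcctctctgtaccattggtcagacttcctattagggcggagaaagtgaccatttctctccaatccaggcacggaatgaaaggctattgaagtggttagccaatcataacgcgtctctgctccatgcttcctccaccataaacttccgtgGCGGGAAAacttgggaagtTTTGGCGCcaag
Mcm6, chr1:128359656-128359955, minus strand: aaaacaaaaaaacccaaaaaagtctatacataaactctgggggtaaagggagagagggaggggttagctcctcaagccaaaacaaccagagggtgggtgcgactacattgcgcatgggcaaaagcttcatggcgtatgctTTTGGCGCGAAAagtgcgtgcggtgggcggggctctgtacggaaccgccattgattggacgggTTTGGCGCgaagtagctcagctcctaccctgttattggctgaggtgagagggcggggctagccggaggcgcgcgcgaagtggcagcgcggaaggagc
Mcm7, chr5:138171834-138172133, minus strand: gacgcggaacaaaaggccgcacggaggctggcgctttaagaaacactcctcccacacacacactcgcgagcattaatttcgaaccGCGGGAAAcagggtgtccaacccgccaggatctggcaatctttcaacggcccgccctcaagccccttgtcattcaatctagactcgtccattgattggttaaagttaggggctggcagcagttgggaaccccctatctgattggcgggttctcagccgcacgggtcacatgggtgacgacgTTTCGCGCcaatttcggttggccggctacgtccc
Rfc3, chr5:151651159-151651458, minus strand: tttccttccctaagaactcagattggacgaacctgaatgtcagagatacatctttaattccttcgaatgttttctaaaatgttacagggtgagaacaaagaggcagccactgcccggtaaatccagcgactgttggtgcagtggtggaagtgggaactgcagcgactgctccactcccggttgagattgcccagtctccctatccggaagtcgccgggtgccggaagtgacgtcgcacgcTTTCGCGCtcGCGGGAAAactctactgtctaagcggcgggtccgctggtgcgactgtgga
Gins3, chr8:95633309-95633608, plus strand: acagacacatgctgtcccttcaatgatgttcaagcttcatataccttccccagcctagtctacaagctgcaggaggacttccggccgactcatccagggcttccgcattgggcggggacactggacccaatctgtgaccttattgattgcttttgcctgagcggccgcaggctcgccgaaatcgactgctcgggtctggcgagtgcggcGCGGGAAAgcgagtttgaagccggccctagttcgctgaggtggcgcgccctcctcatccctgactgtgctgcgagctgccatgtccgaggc
Calls were counted for genes with and without a word. Lower calls in shSMRT against shGFP cells, defined with the RNA results that follow, were made for 10 of the 11 genes with a word and for 18 of the 19 with a window and none. In shNCOR against shGFP cells the counts were 7 of 11 and 13 of 19. Median log2 fold changes were -0.30 with a word and -0.25 without in shSMRT cells, and -0.13 in both sets in shNCOR cells.

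RNA of the 36 genes was lower in shSMRT cells almost throughout, and lower for a smaller majority in shNCOR cells. In shSMRT against shGFP cells 32 of 36 genes were called lower by limma, that is with a p under 0.05 after Benjamini-Hochberg adjustment over all tested genes, and 0 were called higher, also at an unadjusted p under 0.05 and in limma voom. The background in that comparison was large, since 31.4% of tested genes were called lower, 24.4% higher and 55.8% either way. In shNCOR against shGFP cells 21 of 36 were called lower and 3 higher, where 20.0% of tested genes were called lower, 17.6% higher and 37.6% either way. The differences were small for single genes: the median log2 fold change of RPKM + 1 was -0.25 in shSMRT cells and -0.12 in shNCOR cells, against -0.02 and 0.00 over all tested genes. Values ran between -0.55 and 0.01 in shSMRT cells and between -0.43 and 0.28 in shNCOR cells. Every shSMRT library lay below every shGFP library for 33 of the 36 genes, against 35.2% of tested genes, and every shNCOR library did so for 25, against 24.9%. Groups that did not overlap in either direction were found for 63.1% of tested genes with shSMRT and for 48.1% with shNCOR cells.

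Summed over the 36 genes, RNA came to between 1951 and 1962 RPKM in the shSMRT libraries, between 2108 and 2154 RPKM in the shNCOR libraries and between 2317 and 2355 RPKM in the shGFP libraries. The 3 groups did not overlap, and the shSMRT mean was 83.8% and the shNCOR mean 91.0% of the shGFP mean. In bulk RNA, fewer cells expressing a gene and less RNA in each cell cannot be told apart.

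**Figure D1:**
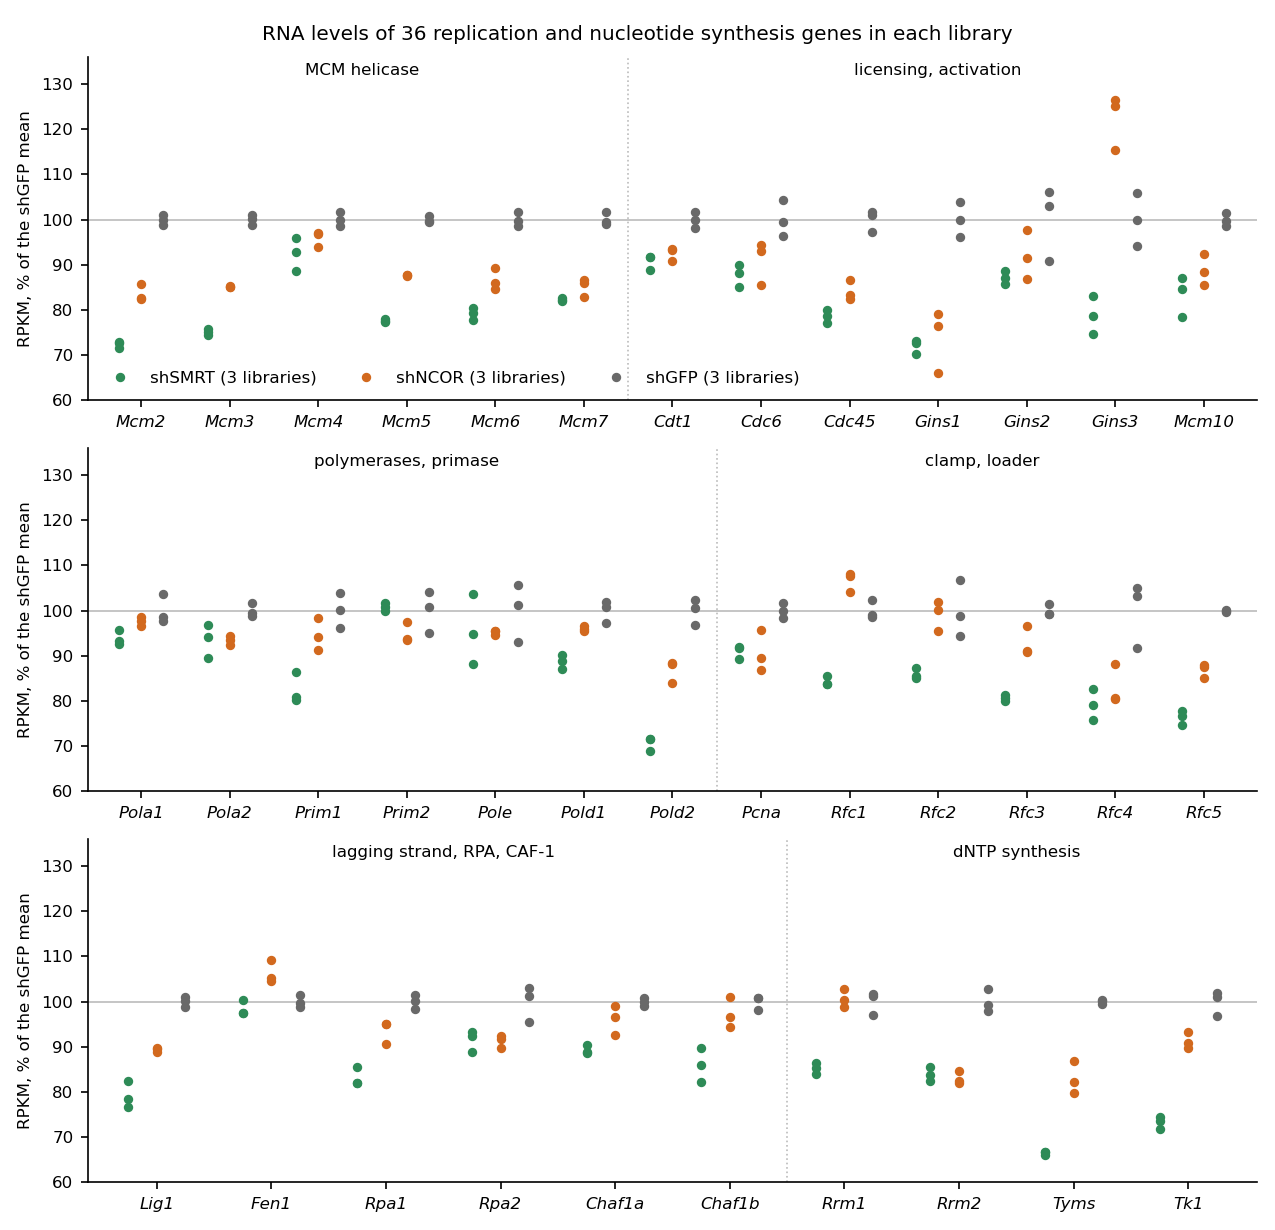
RPKM of each of the 36 genes in every library, as a percentage of the mean of the 3 shGFP libraries, grouped by role and with shSMRT, shNCOR and shGFP side by side. Most shSMRT points lie lowest, shNCOR points for many genes lie between the other groups, and Gins3 is the gene whose shNCOR points lie furthest above 100%.

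The MCM helicase subunits fell together in shSMRT cells, where all 6 were called lower (median log2 fold change -0.35), against 31.4% of all tested genes. Under quantile normalization 5 of the 6 were. In shNCOR cells 5 of 6 were called lower (median -0.22), against 20.0% of all tested genes. Summed RNA of the 6 subunits averaged 464 ± 3.55 RPKM in shSMRT cells, 510.1 ± 2.71 RPKM in shNCOR cells and 588 ± 3.29 RPKM in shGFP cells (SD, n = 3 each). Mcm2 (chr6:88883474-88898780, minus strand of mm10) had 63.3, 64.6 and 64.3 RPKM in shSMRT libraries, 73.0, 75.8 and 73.0 RPKM in shNCOR libraries and 87.4, 88.4 and 89.4 RPKM in shGFP libraries. The 3 groups stood in 3 separate steps, with log2 fold changes of -0.46 ± 0.03 (SE, adjusted p = 1.17e-07) for shSMRT and -0.25 ± 0.03 (adjusted p = 1.78e-05) for shNCOR. Mcm3 (chr1:20802968-20820312, minus strand), whose window is printed above, had 85.5, 84.8 and 83.9 RPKM in shSMRT libraries, 96.1, 96.3 and 96.0 RPKM in shNCOR libraries and 113, 111 and 114 RPKM in shGFP libraries. Its steps were likewise free of overlap, at -0.41 and -0.23 on the log2 scale. Mcm5 and Mcm6 fell by 0.36 and 0.33 in shSMRT cells and by 0.19 and 0.21 in shNCOR cells. In Mcm7 the knockdowns lay close together, with 88.6, 87.9 and 88.1 RPKM in shSMRT libraries, 89.0, 92.1 and 93.0 RPKM in shNCOR libraries and 106, 109 and 107 RPKM in shGFP libraries.

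Mcm4, another subunit of the same ring, moved least. It had 50.9, 52.6 and 48.6 RPKM in shSMRT libraries, 53.2, 53.1 and 51.5 RPKM in shNCOR libraries and 54.8, 55.7 and 54.0 RPKM in shGFP libraries. The shSMRT libraries lay below the shGFP ones (-0.11 ± 0.03, adjusted p = 0.0131), and the shNCOR difference of -0.06 was not called (adjusted p = 0.179). The Mcm4 call in shSMRT cells rested on 1 library, since without shSMRT replicate 3 its adjusted p was 0.058.

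Factors of licensing and helicase activation were all called lower in shSMRT cells, 7 of 7 with a median of -0.25, while in shNCOR cells 4 were called lower and 1, Gins3, higher. Quantile normalization left 5 of the 7 lower in shSMRT cells. Of all tested genes 31.4% were called lower in shSMRT cells, and 20.0% lower and 17.6% higher in shNCOR cells. Gins1, a subunit of the GINS complex, had 25.9, 25.7 and 24.8 RPKM in shSMRT libraries, 27.0, 23.4 and 28.0 RPKM in shNCOR libraries and 36.7, 34.0 and 35.3 RPKM in shGFP libraries. Both knockdowns lay below every shGFP library and overlapped each other, with log2 fold changes of -0.46 ± 0.06 in shSMRT cells (adjusted p = 5.41e-05) and -0.43 ± 0.06 in shNCOR cells (adjusted p = 0.000169). Gins3 (chr8:95633559-95645059, plus strand), of the same complex, had 17.1, 16.2 and 18.0 RPKM in shSMRT libraries, 25.0, 27.4 and 27.1 RPKM in shNCOR libraries and 20.4, 21.6 and 22.9 RPKM in shGFP libraries. No 2 groups overlapped: Gins3 was lower in shSMRT cells (-0.33 ± 0.05, adjusted p = 0.000364) and higher in shNCOR cells (0.28 ± 0.05, adjusted p = 0.00175). Gins2, the remaining GINS subunit measured here, had 34.1, 35.3 and 34.7 RPKM in shSMRT libraries, 38.9, 34.6 and 36.5 RPKM in shNCOR libraries and 42.3, 36.2 and 41.1 RPKM in shGFP libraries. Its shGFP libraries were widely spread, and the calls followed single libraries. The shSMRT call (-0.19, adjusted p = 0.0144) was lost without shGFP replicate 1 (adjusted p = 0.0627) or shGFP replicate 3 (adjusted p = 0.0557), and the shNCOR difference (-0.11, adjusted p = 0.137) was called without shGFP replicate 2 (adjusted p = 0.0129).

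The other licensing and activation factors were called lower in shSMRT cells too. Cdc45, which joins GINS and MCM in the active helicase, had 21.0, 20.7 and 20.3 RPKM in shSMRT libraries, 21.9, 21.7 and 22.8 RPKM in shNCOR libraries and 26.6, 25.6 and 26.8 RPKM in shGFP libraries, so that both knockdowns lay below every shGFP library (-0.33 and -0.24). Mcm10, needed for helicase activation, fell by 0.25 in shSMRT cells and by 0.17 in shNCOR cells, and Cdt1, a loader of MCM, by 0.14 and 0.11. Cdc6, the ATPase that loads MCM with the origin recognition complex, had 12.0, 11.8 and 11.4 RPKM in shSMRT libraries, 11.4, 12.6 and 12.4 RPKM in shNCOR libraries and 12.9, 13.9 and 13.3 RPKM in shGFP libraries. Neither knockdown overlapped the shGFP libraries, and Cdc6 was called lower in shSMRT cells (-0.17, adjusted p = 0.00863) but not in shNCOR cells (-0.13, adjusted p = 0.0542). That last value crossed the threshold without shGFP replicate 1 (adjusted p = 0.0499) or shNCOR replicate 2 (adjusted p = 0.0486).

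Among polymerase and primase genes, 4 of 7 were called lower in shSMRT cells (57.1%, against 31.4% of all tested genes, median -0.09). In shNCOR cells 2 of 7 were (28.6%, against 20.0%, median -0.07). Under quantile normalization, median ratio scaling and limma voom 3 of the 7 were called lower in shSMRT cells. The shNCOR counts in these settings were 1, 2 and 1. Summed RNA of the 7 genes was 86.3% of the shGFP mean in shSMRT cells and 93.1% in shNCOR cells. Pold2, the accessory subunit of polymerase delta (chr11:5872180-5878256, minus strand), stood out with 35.6, 35.7 and 34.4 RPKM in shSMRT libraries, 44.0, 44.1 and 41.9 RPKM in shNCOR libraries and 51.0, 48.3 and 50.2 RPKM in shGFP libraries. The groups fell in 3 steps, at -0.49 ± 0.03 in shSMRT cells (adjusted p = 4.48e-07) and -0.20 ± 0.03 in shNCOR cells (adjusted p = 0.000682). Prim1, the catalytic primase subunit, had 26.9, 27.1 and 29.0 RPKM in shSMRT libraries, 31.6, 33.0 and 30.7 RPKM in shNCOR libraries and 34.8, 32.2 and 33.6 RPKM in shGFP libraries. The shSMRT libraries lay below all others (-0.27, adjusted p = 0.000249), and the shNCOR and shGFP libraries overlapped (-0.08, adjusted p = 0.179). Pold1, the catalytic subunit of polymerase delta, was called lower in shSMRT cells (-0.17) and not in shNCOR cells (-0.06, adjusted p = 0.143).

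Subunits of polymerase alpha and epsilon and the second primase subunit gave few calls. Pole, the catalytic subunit of polymerase epsilon and the lowest of the 36 genes in RPKM, had 9.05, 10.6 and 9.73 RPKM in shSMRT libraries, 9.80, 9.71 and 9.80 RPKM in shNCOR libraries and 10.4, 10.8 and 9.54 RPKM in shGFP libraries, with overlap between all groups. Prim2, the regulatory primase subunit, had a log2 fold change of 0.01 in shSMRT cells (adjusted p = 0.812) and -0.07 in shNCOR cells (adjusted p = 0.158). Pola1, the catalytic subunit of polymerase alpha, had -0.08 (adjusted p = 0.0751) and -0.03 (adjusted p = 0.537) in the same order. Pola2, its accessory subunit, was called lower in both knockdowns by little (-0.09, adjusted p = 0.0301 in shSMRT cells and -0.10, adjusted p = 0.0406 in shNCOR cells). The Pola2 call in shSMRT cells was lost without shGFP replicate 1 (adjusted p = 0.0584) or 3 (adjusted p = 0.0967) and without shSMRT replicate 2 (adjusted p = 0.127) or 3 (adjusted p = 0.0551). In shNCOR cells it was lost on leaving out any shGFP library (adjusted p = 0.0768, 0.0608 and 0.124), any shNCOR library (adjusted p = 0.0894, 0.0652 and 0.0856) or shSMRT replicate 3 (adjusted p = 0.0556).

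The sliding clamp and its loader were called lower in shSMRT cells in 6 of 6 cases (median -0.27), and in shNCOR cells 4 were called lower and 1, Rfc1, higher (median -0.12). Quantile normalization left 5 lower in shSMRT cells and 3 in shNCOR cells. Of all tested genes 31.4% were called lower in shSMRT cells, and 20.0% lower and 17.6% higher in shNCOR cells. Pcna, the clamp itself and the most abundant of the 36 transcripts, had 319.6, 318 and 311 RPKM in shSMRT libraries, 332, 302 and 311 RPKM in shNCOR libraries and 353, 341 and 347 RPKM in shGFP libraries. Both knockdowns lay below the shGFP range by a like amount, -0.13 ± 0.03 in shSMRT cells (adjusted p = 0.00685) and -0.14 ± 0.03 in shNCOR cells (adjusted p = 0.0082). Rfc5, a small subunit of the clamp loader, had 46.4, 45.3 and 47.1 RPKM in shSMRT libraries, 53.0, 53.2 and 51.5 RPKM in shNCOR libraries and 60.6, 60.5 and 60.7 RPKM in shGFP libraries. Its groups were separate and ordered as for Mcm2, with -0.38 in shSMRT cells and -0.20 in shNCOR cells. Rfc4, another small subunit, fell by 0.33 in shSMRT cells and by 0.26 in shNCOR cells.

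Rfc1, the large subunit of the same loader, went the other way in shNCOR cells. It had 22.7, 22.2 and 22.2 RPKM in shSMRT libraries, 27.6, 28.5 and 28.6 RPKM in shNCOR libraries and 26.2, 27.1 and 26.1 RPKM in shGFP libraries. The shSMRT libraries were lowest (-0.24, adjusted p = 6.59e-05) and the shNCOR libraries highest (0.09, adjusted p = 0.0395). The second call did not hold without shGFP replicate 1 (adjusted p = 0.103) or 3 (adjusted p = 0.121), without shNCOR replicate 2 (adjusted p = 0.105) or 3 (adjusted p = 0.116), or without any shSMRT library (adjusted p = 0.0503, 0.0534 and 0.0542). Rfc2 was called lower in shSMRT cells (-0.21) and not in shNCOR cells (-0.01, adjusted p = 0.88). Rfc3, whose window is printed above, fell by 0.30 in shSMRT cells and was called lower in shNCOR cells at -0.10 (adjusted p = 0.0225), a call lost without shGFP replicate 2 (adjusted p = 0.068), shNCOR replicate 1 (adjusted p = 0.0622) or shNCOR replicate 3 (adjusted p = 0.0829).

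Of the lagging-strand, single-strand binding and chromatin assembly genes, 5 of 6 were called lower in shSMRT cells (median -0.18), and in shNCOR cells 3 were called lower and 1, Fen1, higher (median -0.08). Quantile normalization left 4 lower in shSMRT cells and 2 in shNCOR cells. Of all tested genes 31.4% were called lower in shSMRT cells, and 20.0% lower and 17.6% higher in shNCOR cells. Lig1, the ligase that joins Okazaki fragments, had 52.9, 49.3 and 50.4 RPKM in shSMRT libraries, 57.5, 57.6 and 57.0 RPKM in shNCOR libraries and 64.8, 64.3 and 63.4 RPKM in shGFP libraries. Its groups did not overlap, at -0.33 in shSMRT cells (adjusted p = 4.03e-06) and -0.16 in shNCOR cells (adjusted p = 0.00143). Fen1, the flap nuclease that prepares the same fragments for joining, had 90.6, 90.4 and 93.1 RPKM in shSMRT libraries, 101, 97.6 and 97.1 RPKM in shNCOR libraries and 92.5, 91.7 and 94.2 RPKM in shGFP libraries. The shNCOR libraries were the highest (0.09, adjusted p = 0.0244), a call lost without shGFP replicate 1 (adjusted p = 0.0629), shGFP replicate 2 (adjusted p = 0.0722) or shNCOR replicate 1 (adjusted p = 0.0686), and shSMRT and shGFP libraries overlapped (-0.02, adjusted p = 0.503).

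Rpa1 and Rpa2, subunits of the single-strand binding protein, were called lower in both knockdowns. Rpa1 fell by 0.26 in shSMRT cells (adjusted p = 2.11e-05), and in shNCOR cells it stood at -0.10 (adjusted p = 0.0251), a call lost without shGFP replicate 1 (adjusted p = 0.0618), shGFP replicate 2 (adjusted p = 0.0767) or shNCOR replicate 3 (adjusted p = 0.1). Rpa2 fell by 0.12 in shSMRT cells and by 0.13 in shNCOR cells. Chaf1a and Chaf1b, subunits of the CAF-1 complex that places histones on new DNA, fell by 0.16 and 0.21 in shSMRT cells and were not called in shNCOR cells (-0.06, adjusted p = 0.172 and -0.04, adjusted p = 0.481). Chaf1b had 24.3, 22.2 and 23.3 RPKM in shSMRT libraries, 26.1, 27.4 and 25.6 RPKM in shNCOR libraries and 27.3, 27.3 and 26.6 RPKM in shGFP libraries, with the shNCOR and shGFP libraries overlapping.

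Deoxynucleotide synthesis held some of the largest differences. All 4 enzymes were called lower in shSMRT cells (median -0.35) and 3 of 4 in shNCOR cells (median -0.19). Of all tested genes 31.4% and 20.0% were. Tyms, thymidylate synthase (chr5:30058200-30073625, minus strand), had 12.2, 12.2 and 12.1 RPKM in shSMRT libraries, 15.0, 14.6 and 15.9 RPKM in shNCOR libraries and 18.3, 18.2 and 18.3 RPKM in shGFP libraries. It gave the lowest log2 fold change of the 36 in shSMRT cells, -0.55 ± 0.04 (adjusted p = 4.62e-07), and stood at -0.25 ± 0.04 in shNCOR cells (adjusted p = 0.000276), in 3 separate steps. Tk1, the cytosolic thymidine kinase of the salvage route to the same nucleotide, had 89.9, 86.7 and 89.0 RPKM in shSMRT libraries, 113, 109.5 and 108 RPKM in shNCOR libraries and 123, 117 and 122 RPKM in shGFP libraries. It followed the same order, at -0.44 in shSMRT cells and -0.13 in shNCOR cells.

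The subunits of ribonucleotide reductase, which makes deoxyribonucleotides from ribonucleotides, did not move alike. Rrm1, the large subunit, had 81.1, 78.7 and 80.1 RPKM in shSMRT libraries, 96.6, 94.1 and 92.8 RPKM in shNCOR libraries and 91.0, 95.0 and 95.5 RPKM in shGFP libraries. Its shSMRT libraries were lowest (-0.23, adjusted p = 4.81e-05), and its shNCOR and shGFP libraries overlapped (0.01, adjusted p = 0.803). Rrm2, the small subunit whose level follows the cell cycle, had 105, 109 and 107 RPKM in shSMRT libraries, 105, 107.9 and 105 RPKM in shNCOR libraries and 131, 127 and 125 RPKM in shGFP libraries. Both knockdowns lay below the shGFP range by the same step, -0.25 in shSMRT cells and -0.26 in shNCOR cells (adjusted p = 1.85e-05 and 2.23e-05).

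**Figure D2:**
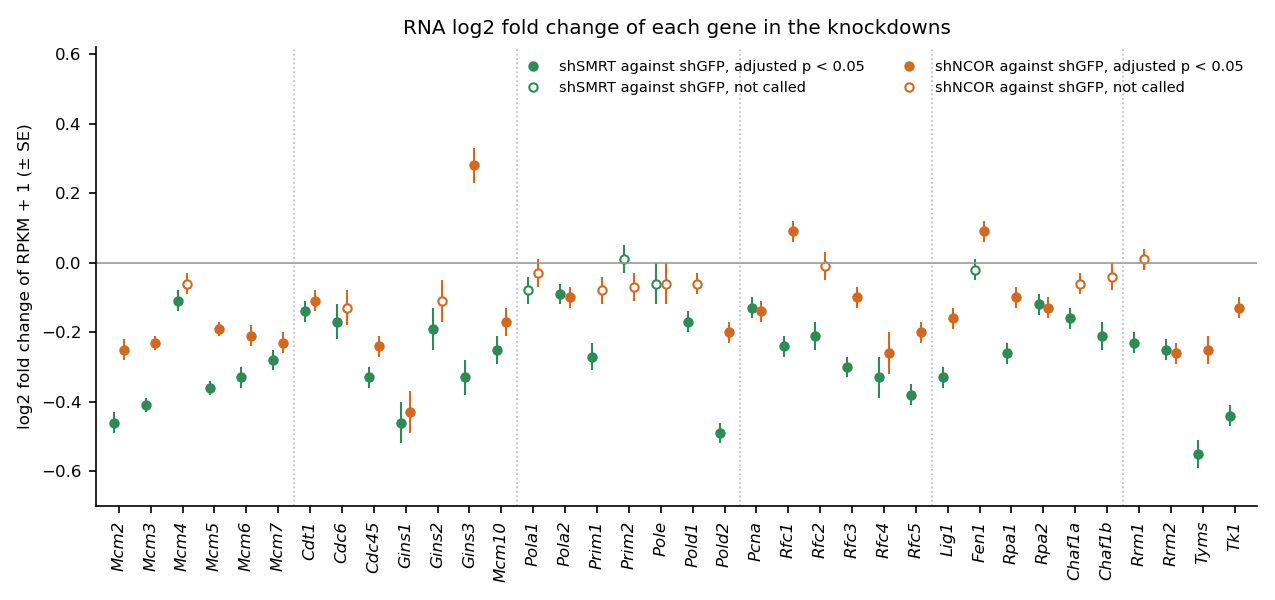
Log2 fold change of RPKM + 1 with its standard error for each of the 36 genes, in shSMRT against shGFP cells and in shNCOR against shGFP cells, which share their shGFP libraries. Filled points have an adjusted p under 0.05. In shSMRT cells 32 filled points lie below 0, and in shNCOR cells 21 lie below and 3 above it.

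The knockdowns were also set against each other. In shSMRT against shNCOR cells 21 of the 36 genes were called lower and the median difference was -0.11, where 29.0% of tested genes were called lower, 22.8% higher and 51.8% either way. Limma called 0 of the 36 higher, 1 reached an unadjusted p under 0.05 in that direction, and limma voom called 0. All shSMRT libraries lay below all shNCOR libraries for 23 of the 36, against 32.8% of tested genes, and the groups did not overlap in either direction for 58.9% of tested genes. The largest difference was Gins3 (-0.61 ± 0.05, adjusted p = 3.77e-06), followed by Rfc1 (-0.33 ± 0.03, adjusted p = 6.4e-06). Tk1 (-0.31), Tyms (-0.30), Pold2 (-0.29) and Rrm1 (-0.24) came next.

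By their calls in the 3 comparisons the genes fell into a few patterns. The comparisons share libraries, and the share of all tested genes with each pattern was not counted. The pattern counts therefore describe these genes without a background. The 12 genes Mcm2, Mcm3, Mcm5, Mcm6, Cdc45, Pold2, Rfc3, Rfc5, Lig1, Rpa1, Tyms and Tk1 were called lower in both knockdowns and lower again in shSMRT than in shNCOR cells. For 9 others, Mcm7, Cdt1, Gins1, Mcm10, Pola2, Pcna, Rfc4, Rpa2 and Rrm2, both knockdowns were called lower and the difference between them was not called. In Prim1, Pold1, Rfc2, Chaf1a, Chaf1b and Rrm1 the shSMRT cells were called lower than both other groups and the shNCOR cells were not called. Mcm4, Cdc6 and Gins2 were called in shSMRT against shGFP cells alone, and Pola1, Prim2 and Pole in no comparison. Between the knockdowns, the call of Cdc45 (-0.09, adjusted p = 0.0361) was lost without shNCOR replicate 1 (adjusted p = 0.0503), shNCOR replicate 3 (adjusted p = 0.128), shSMRT replicate 2 (adjusted p = 0.0764) or shSMRT replicate 3 (adjusted p = 0.111). Chaf1a lost its call without shNCOR replicate 1 (adjusted p = 0.0506), and Mcm7 gained one without it (adjusted p = 0.0436).

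Levels per kilobase of exon differed widely among the genes in shGFP cells. The lowest were Pole (10.3 ± 0.658 RPKM, SD, n = 3), Pola1 (13.3 ± 0.424 RPKM), Cdc6 (13.4 ± 0.533 RPKM) and Tyms (18.3 ± 0.0758 RPKM), and Pola1 and Cdc6 did not differ beyond their spread. At the other end Mcm3, Mcm5 and Mcm6 lay at 113, 113 and 112 RPKM, within their spread of each other, with Tk1 at 121 ± 3.27 RPKM, Rrm2 at 127 ± 3.10 RPKM and Pcna alone at 347 ± 6.07 RPKM. Exon length, which ran between 637 and 7078 bases, was only loosely related to the differences: across the 36 genes Spearman's rho with the log2 fold change was 0.17 in shSMRT cells and 0.26 in shNCOR cells, and 0.16 and 0.04 across all tested genes. These points share their libraries, so no test is given.

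Accessibility at the start sites of these genes was lower in shSMRT cells, as it was at start sites in general. Of 34 promoter peaks within 1 kb of a start site, 15 were called lower in shSMRT against shGFP cells, where 21.8% of all 11714 promoter peaks were called lower and 1.62% higher. Limma called 0 of the 34 higher, 0 reached an unadjusted p under 0.05 in that direction, and limma voom called 0. All 34 log2 fold changes of the ATAC value + 5 were below 0, with a median of -0.26, against -0.20 over all promoter peaks. In shNCOR against shGFP cells the median was 0.06, against 0.08 over all promoter peaks. There 1 of the 34 was called higher, where 3.06% of promoter peaks were, and 0 were called lower by limma, at an unadjusted p under 0.05 or by limma voom, where 1.49% were. Between the knockdowns 22 of 34 were called lower in shSMRT than in shNCOR cells, and 41.7% of all promoter peaks were.

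These counts depended on scaling, in step with the share of reads in peaks given above, which was lowest in shSMRT libraries. Over all tested peaks the median log2 fold change was -0.09 in shSMRT cells and 0.05 in shNCOR cells, and -0.12 between the knockdowns, and median ratio scaling brought these to within 0.01 of 0. Under that scaling 5 of the 34 promoter peaks were called lower in shSMRT against shGFP cells (14.7%, against 9.59% of all promoter peaks). Under quantile normalization 3 were (8.82%, against 7.72%), and under limma voom 5 (14.7%, against 11.5%). Of the 34 log2 fold changes 32, 30 and 31 stayed below 0 in these 3 settings, with medians of -0.18, -0.13 and -0.17 against -0.12, -0.08 and -0.11 over all promoter peaks. In shNCOR against shGFP cells the median of the 34 became 0.02, -0.02 and 0.00. Between the knockdowns the 22 lower calls became 6 under median ratio scaling (17.6%, against 15.0% of all promoter peaks), 1 under quantile normalization (2.94%, against 5.49%) and 5 under limma voom (14.7%, against 9.88%). The split of all calls moved with the scaling. Over all promoter peaks it was 190 higher and 2554 lower in shSMRT against shGFP cells as deposited and 332 higher and 1343 lower under limma voom, and over all tested peaks 3506 higher and 5595 lower as deposited and 5527 higher and 3336 lower under limma voom. For shNCOR against shGFP cells the same split over all tested peaks was 2357 higher and 2057 lower as deposited and 1458 higher and 2108 lower under limma voom, and over promoter peaks 359 higher and 175 lower as deposited and 163 higher and 218 lower under quantile normalization. Between the knockdowns all tested peaks gave 3565 higher and 8999 lower as deposited and 4238 higher and 2257 lower under limma voom, and promoter peaks 190 higher and 4886 lower as deposited and 268 higher and 643 lower under quantile normalization. Single libraries mattered too: the 15 lower calls became 5 without shGFP replicate 1, 9 without replicate 2 and 6 without replicate 3, and 8 and 7 without shSMRT replicates 1 and 2.

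At the promoters named here the shSMRT mean was the lowest, while shNCOR and shGFP means had no common order. Values are given in ATAC reads per 10 M. The peak at the Chaf1b start site (chr16:93883438-93884121) had 180, 276 and 215 in shSMRT libraries, 338, 309 and 331 in shNCOR libraries and 329, 305 and 307 in shGFP libraries. All shSMRT values lay below the rest, by -0.50 ± 0.10 on the log2 scale against shGFP cells (adjusted p = 0.000502). The Rrm1 promoter peak (chr7:102441492-102442117) had 165, 193 and 168 in shSMRT libraries, 249, 239 and 255 in shNCOR libraries and 274, 227 and 230 in shGFP libraries. Its log2 fold change was -0.46 ± 0.10 (adjusted p = 0.00136), again with no overlap between shSMRT and the rest. These 2 were the only promoter peaks of the 34 whose shSMRT call against shGFP cells was kept in each of the 19 alternative settings.

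Other promoter peaks with low values in shSMRT cells were those of Prim1 (-0.61), Tyms (-0.50), Pola1 (-0.45), Mcm6 (-0.43) and Mcm3 (-0.36). These values are as deposited, where the median over all promoter peaks was -0.20. Under the other scalings 3 to 5 of the 34 promoter peaks were called lower. The Prim1 peak had 39.4, 42.0 and 34.0 in shSMRT libraries, 52.8, 64.4 and 55.8 in shNCOR libraries and 52.6, 67.5 and 64.6 in shGFP libraries, with the shSMRT values below all others. Each lost its call without 1 or more single libraries: Prim1 without shGFP replicate 2 or 3 or shSMRT replicate 1 or 3 (adjusted p = 0.129, 0.119, 0.0719 and 0.107), and Tyms without shGFP replicate 1 or 2 or shSMRT replicate 1 or 2 (adjusted p = 0.162, 0.0645, 0.133 and 0.0835). Pola1 lost it without shGFP replicate 3 (adjusted p = 0.0729) or shSMRT replicate 2 (adjusted p = 0.0825), Mcm6 without shGFP replicate 1 (adjusted p = 0.108) or shSMRT replicate 2 (adjusted p = 0.103), and Mcm3 without shGFP replicate 3 (adjusted p = 0.0588). The call higher in shNCOR cells was at Cdt1 (0.32 ± 0.08, adjusted p = 0.0065), where the peak had 460, 479 and 526 in shSMRT libraries, 635, 675 and 634 in shNCOR libraries and 574, 494 and 487 in shGFP libraries. The call was lost without shGFP replicate 2 (adjusted p = 0.0511) or 3 (adjusted p = 0.0757). Cdt1 RNA was called lower in the same cells.

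Some start sites lie under peaks that carry a neighbour's name, and these were read as well. The peak over the Tk1 start is named for Afmid and had 63.9, 68.1 and 75.0 in shSMRT libraries, 112, 135 and 93.9 in shNCOR libraries and 103, 82.5 and 121 in shGFP libraries. The shSMRT values were the lowest (-0.52, adjusted p = 0.0184). The peak over the Mcm4 start is named for Prkdc (-0.28 in shSMRT cells, adjusted p = 0.0317), that over the Rpa1 start for Smyd4 (-0.18, adjusted p = 0.164) and that over the Mcm7 start for Ap4m1 (-0.16, adjusted p = 0.286). Across 33 of the genes the log2 fold changes of RNA and of the promoter peak had a Pearson r of 0.38 in shSMRT cells and 0.17 in shNCOR cells. The genes share libraries and scaling, so this is a description without a test.

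**Figure D3:**
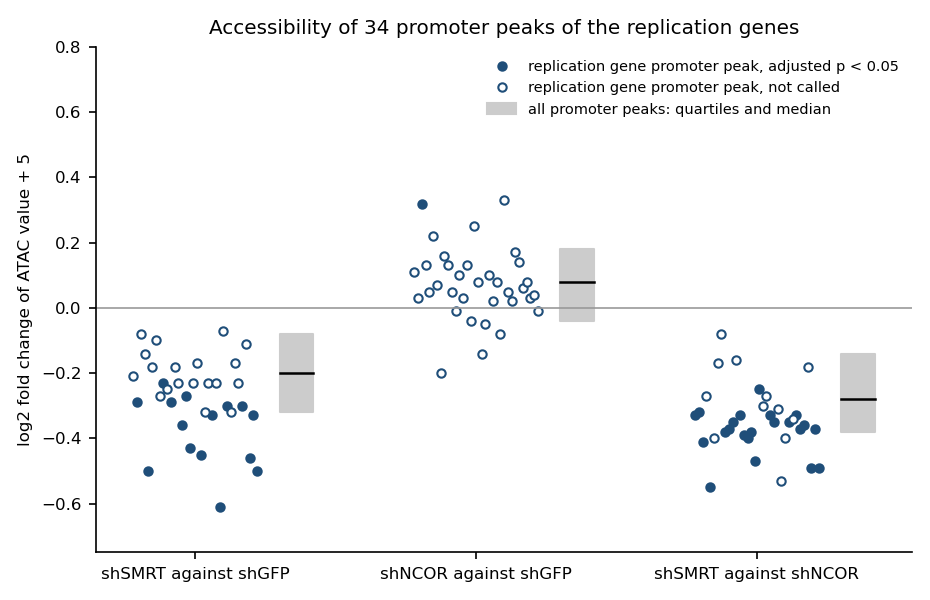
Log2 fold change of the ATAC value + 5 at the 34 promoter peaks of the replication genes in 3 comparisons, filled where the adjusted p is under 0.05, beside the quartiles and median of all 11714 promoter peaks. The points lie below 0 in both shSMRT comparisons, where the grey boxes do too, and around 0 in shNCOR against shGFP.

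Beyond 1 kb there were 54 peaks. Of these, 5 (9.26%) were called lower and 1 (1.85%) higher in shSMRT against shGFP cells. Among all tested peaks from 1 to 50 kb, 7.97% were lower and 7.23% higher. In shNCOR against shGFP cells 4 were lower (7.41%, against 4.17%) and 5 higher (9.26%, against 5.08%). Between the knockdowns 13 were lower (24.1%, against 11.1%) and 0 higher (against 6.83%). The counts over all 88 peaks that follow include the 34 promoter peaks. Over all 88 peaks of these genes, 20 were called lower and 1 higher in shSMRT against shGFP cells, where 10.9% and 6.81% of all tested peaks were (17.7% either way). In shNCOR against shGFP cells 4 were called lower and 6 higher, where 4.0% and 4.58% were (8.58% either way). Between the knockdowns 35 were called lower, where 17.5% were, and 0 higher, where 6.93% were (24.4% either way). In that direction 0 of the 88 reached an unadjusted p under 0.05 in limma and limma voom called 0, but without shSMRT replicate 2 the peak at 9004 bp from the Rfc1 start was called higher (0.99, adjusted p = 0.0155). Against shGFP cells, the 21 calls in shSMRT cells became 10, 13 and 9 without shGFP replicates 1, 2 and 3 and 13 without shSMRT replicate 1 or 2. The 10 calls in shNCOR cells became 3, 2 and 3 without shGFP replicates 1, 2 and 3 and 5 without shNCOR replicate 3.

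The peaks of Gins3 had the same order of groups as its RNA, an order common in the deposited ATAC values. Over all tested peaks the median log2 fold change against shGFP cells was 0.05 in shNCOR and -0.09 in shSMRT cells. Of the 34 promoter peaks of the 36 genes, 34 log2 fold changes were below 0 in shSMRT cells and 7 in shNCOR cells. Mean accessibility of Gins3 was highest in shNCOR cells, intermediate in shGFP cells and lowest in shSMRT cells in all 5 of its peaks. The peak at -26.0 kb from its start site (chr8:95607159-95607867) had 94.8, 77.1 and 75.0 reads per 10 M in shSMRT libraries, 153, 125 and 159.9 in shNCOR libraries and 97.3, 87.2 and 119 in shGFP libraries. The shNCOR values lay above the rest, and the difference was called higher in shNCOR against shGFP cells (0.51, adjusted p = 0.0197) and lower in shSMRT against shNCOR cells (-0.79, adjusted p = 9.86e-05), while shSMRT against shGFP cells was not called (-0.28, adjusted p = 0.193). The peak at 4.2 kb had 60.1, 64.7 and 63.7 in shSMRT libraries, 92.4, 97.4 and 107 in shNCOR libraries and 67.1, 71.3 and 64.6 in shGFP libraries. Here too only the shNCOR values stood apart (0.51, adjusted p = 0.0446).

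Between the knockdowns all 5 Gins3 peaks were called lower in shSMRT cells, with -0.52 at -17.0 kb, -0.37 at the promoter, -0.61 at 4.2 kb and -0.68 at 29.9 kb beside the -0.79 above, and that of -26.0 kb was kept in each of the 19 alternative settings. Over all 88 peaks of the 36 genes, the 35 calls between the knockdowns became 11 under quantile normalization, 14 under median ratio scaling and 6 under limma voom. All were lower calls, at 12.5%, 15.9% and 6.82% of the 88, against 4.66%, 6.77% and 4.39% of all tested peaks. The shNCOR calls of Gins3 peaks against shGFP cells rested on single libraries. The peak at -26.0 kb lost its call without shGFP replicate 1 (adjusted p = 0.0729), shGFP replicate 2 (adjusted p = 0.143), shNCOR replicate 1 (adjusted p = 0.0746) or shNCOR replicate 3 (adjusted p = 0.0927), and the peak at 4.2 kb without any of the 6 libraries compared (adjusted p between 0.06 and 0.142). Between the knockdowns the promoter call was lost without shNCOR replicate 1 or 3 or shSMRT replicate 1 or 2 (adjusted p = 0.1, 0.0967, 0.0646 and 0.179), and the call at 29.9 kb without shSMRT replicate 3 (adjusted p = 0.0534).

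**Figure D4:**
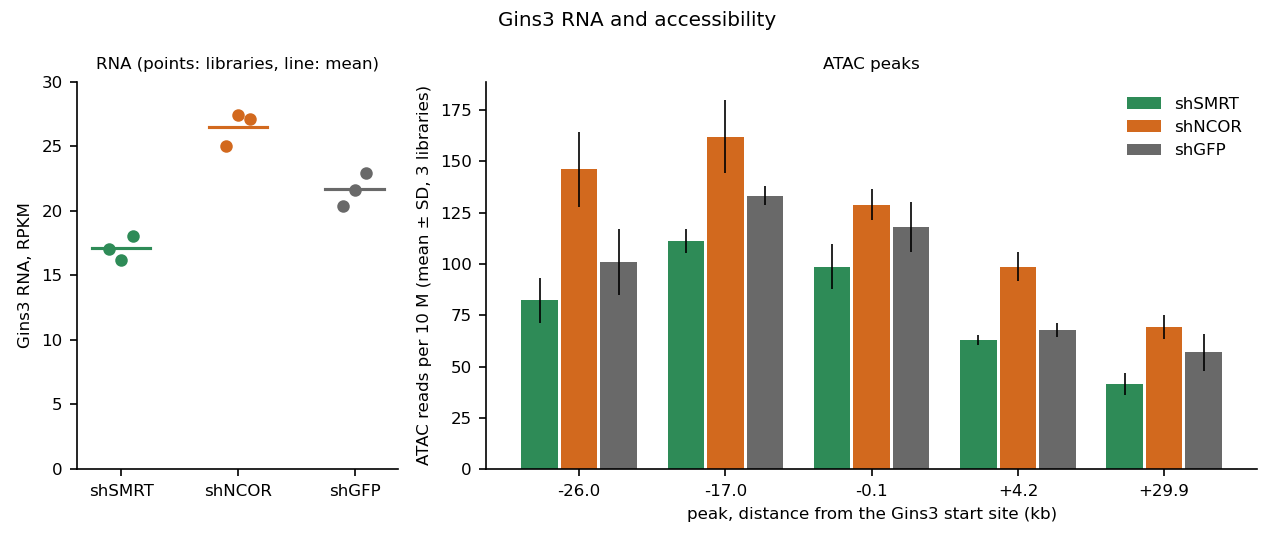
Gins3 RNA in each library with the group mean (left, RPKM) and the mean ± SD of the ATAC value over 3 libraries at its 5 peaks, ordered by distance from the start site in kb (right, reads per 10 M), for shSMRT, shNCOR and shGFP. In RNA and in all 5 peaks the shNCOR mean is the highest and the shSMRT mean the lowest. Over all tested peaks the median log2 fold change against shGFP is also above 0 in shNCOR (0.05) and below 0 in shSMRT (-0.09).

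Other distal peaks moved singly. Inside or near Pola2, the peak at 11810 bp had 85.4, 68.1 and 67.9 in shSMRT libraries, 76.6, 75.9 and 82.5 in shNCOR libraries and 121, 118 and 113 in shGFP libraries. Both knockdowns lay below the shGFP values, with -0.64 in shSMRT cells (adjusted p = 0.00255) and -0.56 in shNCOR cells (adjusted p = 0.016). The shSMRT call was kept in each of the 19 settings, and the shNCOR call was lost without shGFP replicate 1 (adjusted p = 0.0703) or 2 (adjusted p = 0.0658). The peak just upstream of Rrm2, at -1274 bp, had 40.4, 29.5 and 36.8 in shSMRT libraries, 47.5, 69.3 and 55.8 in shNCOR libraries and 77.2, 61.9 and 78.4 in shGFP libraries. Its shSMRT values were the lowest (-0.94, adjusted p = 0.00126, kept in each of the 19 settings).

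In the opposite direction, the peak at 41203 bp from the Rfc1 start had 49.8, 29.5 and 43.9 in shSMRT libraries, 44.9, 29.7 and 64.7 in shNCOR libraries and 30.2, 16.9 and 12.9 in shGFP libraries. It was called higher in both knockdowns (0.91, adjusted p = 0.0224 and 1.04, adjusted p = 0.0155), although 1 shGFP value lay above the lowest value of each. Its shSMRT call was lost without shGFP replicate 2 or 3 or shSMRT replicate 1 or 3 (adjusted p = 0.0706, 0.134, 0.125 and 0.0744) and its shNCOR call without shGFP replicate 2 or 3 or shNCOR replicate 3 (adjusted p = 0.0689, 0.112 and 0.129).

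The lists around these 36 genes were read in the same fit, and the lists were drawn up with earlier results of these data known. Of 45 other origin and fork factors, 30 were called lower and 4 higher in shSMRT cells and 13 lower and 5 higher in shNCOR cells, with medians of -0.17 and -0.05. The lower calls were 66.7% of the list in shSMRT cells, against 31.4% of all tested genes, and 28.9% in shNCOR cells, against 20.0%. The higher calls were 8.89% in shSMRT cells, against 24.4%, and 11.1% in shNCOR cells, against 17.6%. Without shNCOR replicate 2 the 5 higher calls in shNCOR cells became 3. Rnaseh2b, a subunit of the nuclease that removes ribonucleotides from DNA, was lowest, with 15.6, 17.3 and 15.1 RPKM in shSMRT libraries, 17.2, 16.4 and 16.8 RPKM in shNCOR libraries and 23.7, 22.5 and 23.5 RPKM in shGFP libraries. Pold4, the small subunit of polymerase delta, went the other way, with 20.7, 20.5 and 24.2 RPKM in shSMRT libraries, 17.1, 17.3 and 20.6 RPKM in shNCOR libraries and 11.7, 10.8 and 10.6 RPKM in shGFP libraries. It rose by 0.92 ± 0.08 on the log2 scale in shSMRT cells and by 0.68 ± 0.08 in shNCOR cells. The others called higher were Wdhd1, Clspn and Top1 in shSMRT cells (0.14, 0.11 and 0.09) and Orc5, Orc6, Wdhd1 and Clspn in shNCOR cells (0.44, 0.12, 0.18 and 0.11), of which Clspn, Top1 and Orc6 are named after their values were seen.

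Of 31 other nucleotide synthesis genes, 25 were called lower and 2 higher in shSMRT cells and 13 lower and 3 higher in shNCOR cells, with medians of -0.28 and -0.05. The lower calls were 80.6% of the list in shSMRT cells, against 31.4% of all tested genes, and 41.9% in shNCOR cells, against 20.0%. The higher calls were 6.45% in shSMRT cells, against 24.4%, and 9.68% in shNCOR cells, against 17.6%. Dut, which removes dUTP and supplies the substrate of thymidylate synthase, had 28.8, 26.8 and 27.9 RPKM in shSMRT libraries, 50.3, 45.2 and 46.4 RPKM in shNCOR libraries and 56.4, 51.1 and 51.2 RPKM in shGFP libraries. Its shSMRT libraries were far below the others (-0.90 ± 0.05, adjusted p = 9.32e-08). Shmt2, the mitochondrial serine hydroxymethyltransferase of one-carbon metabolism, fell by 0.75 in shSMRT cells and by 0.34 in shNCOR cells. The higher calls in shSMRT cells were Samhd1, which breaks down deoxynucleotides (0.37, and -0.18 in shNCOR cells), and Tk2, the mitochondrial thymidine kinase (0.35, and 0.21 in shNCOR cells).

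The regulators of S-phase entry did not move as a block. Of 33 tested E2F, RB and G1/S genes, 15 were called lower and 9 higher in shSMRT cells and 11 lower and 3 higher in shNCOR cells. The lower calls were 45.5% of the list in shSMRT cells, against 31.4% of all tested genes, and 33.3% in shNCOR cells, against 20.0%. The higher calls were 27.3% in shSMRT cells, against 24.4%, and 9.09% in shNCOR cells, against 17.6%. Ccnd1, cyclin D1, had 117, 119 and 115 RPKM in shSMRT libraries, 77.3, 81.4 and 79.3 RPKM in shNCOR libraries and 182, 184 and 186 RPKM in shGFP libraries. It was lowest in shNCOR cells, at -1.20 ± 0.03, with -0.65 ± 0.03 in shSMRT cells. Ccnd2, cyclin D2, went the other way in shSMRT cells. It had the largest rise among called genes of the list, whose highest log2 fold change there was 1.81. Of the 36 genes listed, 5 lay under 1 RPKM in each shGFP library and 3 in each shSMRT library. The filter could thus be passed through shSMRT libraries alone, which favours higher calls there. In shNCOR against shGFP cells Ccnd2 gave -0.2 without a filter, -1.3 with a pseudocount of 0.1 and -6.19 by limma voom. Its fold changes are therefore those of a gene near 0 RPKM. Ccna2, cyclin A2, fell by 0.41 in shSMRT cells and by 0.19 in shNCOR cells, and Myc, at 2.84, 2.46 and 3.09 RPKM in shSMRT libraries and 0.888, 0.822 and 0.575 RPKM in shGFP libraries, was called higher in shSMRT cells (1.11).

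Mitosis genes were mostly lower as well. Lower calls made up 92.2% of the list in shSMRT cells, against 31.4% of all tested genes, and 51.0% in shNCOR cells, against 20.0%. Of 51 mitosis and spindle genes 47 were called lower in shSMRT cells and 26 in shNCOR cells, with medians of -0.25 and -0.09, and limma called 0 higher in either (0 and 1 at an unadjusted p under 0.05, and 0 and 1 by limma voom, and 1 in each under quantile normalization). Birc5, survivin, had 83.2, 78.5 and 79.7 RPKM in shSMRT libraries, 135, 123 and 118 RPKM in shNCOR libraries and 134, 131 and 128 RPKM in shGFP libraries, so that the shSMRT libraries lay below the rest (-0.70 ± 0.04). The shNCOR difference (-0.07, adjusted p = 0.252) was called without shNCOR replicate 1 (-0.12, adjusted p = 0.0166). Among 23 genes of S-phase linked repair, 14 were called lower in shSMRT cells, and in shNCOR cells 9 were called lower and 2, Brca1 and Rad51ap1, higher (0.15 and 0.16). Lower calls were 60.9% of this list in shSMRT cells, against 31.4% of all tested genes, and 39.1% in shNCOR cells, against 20.0%. Higher calls in shNCOR cells were 8.7%, against 17.6%. The 9 lower calls became 4 without shGFP replicate 3 and 5 without shGFP replicate 2 or shNCOR replicate 1. The Brca1 call was lost without shGFP replicate 2 (adjusted p = 0.0566), shNCOR replicate 1 (adjusted p = 0.053) or shNCOR replicate 3 (adjusted p = 0.0569). Of 24 p53 target genes, 20 were called higher and 1 lower in shSMRT cells and 9 higher and 1 lower in shNCOR cells, with medians of 0.46 and 0.09. Higher calls were 83.3% of this list in shSMRT cells, against 24.4% of all tested genes, and 37.5% in shNCOR cells, against 17.6%. Of the 26 genes on it, 4 to 6 lay under 1 RPKM in shGFP libraries, 5 in shNCOR libraries and 2 in shSMRT libraries. Genes could thus pass the filter through shSMRT libraries alone, which favours higher calls there. Called either way in shNCOR cells were 41.7%, against 37.6% of all tested genes. The lower calls were Dda1 in shSMRT cells (-0.11, adjusted p = 0.0441), lost without shGFP replicate 1 or 3, shNCOR replicate 2 or 3 or shSMRT replicate 2 or 3 (adjusted p = 0.138, 0.161, 0.0564, 0.0559, 0.0786 and 0.162), and Sesn2 in shNCOR cells (-0.23), lost without shGFP replicate 1 (adjusted p = 0.0859) or shNCOR replicate 3 (adjusted p = 0.0772). Without shGFP replicate 2 the lower calls of this list were 2 in shSMRT cells and 3 in shNCOR cells, and without shNCOR replicate 1 they were 2 in shNCOR cells.

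Phlda3, a p53-induced inhibitor of Akt signalling, had 18.3, 18.0 and 18.1 RPKM in shSMRT libraries, 4.68, 3.80 and 5.00 RPKM in shNCOR libraries and 3.70, 3.39 and 3.59 RPKM in shGFP libraries. It rose by 2.07 ± 0.07 in shSMRT cells, and its shNCOR call (0.26, adjusted p = 0.0154) was lost without shGFP replicate 2 (adjusted p = 0.0515) or shNCOR replicate 3 (adjusted p = 0.059).

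Markers of macrophages and osteoclasts differed between the groups as well, and their part in the replication results was not tested. Of 14 tested macrophage markers 13 were called higher in shSMRT cells and 1, Cd14, lower (-0.14), and in shNCOR cells 5 were called higher and 4, Aif1, Csf1r, Itgam and Cd14, lower. Higher calls were 92.9% in shSMRT cells, against 24.4% of all tested genes, and 35.7% in shNCOR cells, against 17.6%. Lower calls were 7.14% in shSMRT cells, against 31.4%, and 28.6% in shNCOR cells, against 20.0%. Of 9 tested osteoclast markers 8 were called higher in shSMRT cells and 1, Car2, lower, and in shNCOR cells 6 were called higher and 1, Ocstamp, lower. Higher calls were 88.9% and 66.7% of this list, against 24.4% and 17.6% of all tested genes. Lower calls were 11.1% in each knockdown, against 31.4% and 20.0%. Of the 12 osteoclast markers listed, 4 to 6 lay under 1 RPKM in shGFP libraries, 4 in shNCOR libraries and 3 in shSMRT libraries. Here too the filter could be passed through shSMRT libraries alone, which favours higher calls there. The summed osteoclast list ran between 297 and 307 RPKM in shSMRT libraries, between 685 and 710.3 RPKM in shNCOR libraries and between 251 and 264 RPKM in shGFP libraries. Car2, carbonic anhydrase 2, was its most abundant gene, with 94.9, 90.0 and 91.4 RPKM in shSMRT libraries, 590.1, 612 and 614 RPKM in shNCOR libraries and 194, 181 and 196 RPKM in shGFP libraries, while Calcr, Itgb3 and Oscar lay at or under 0.286 RPKM in every library.

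**Figure D5:**
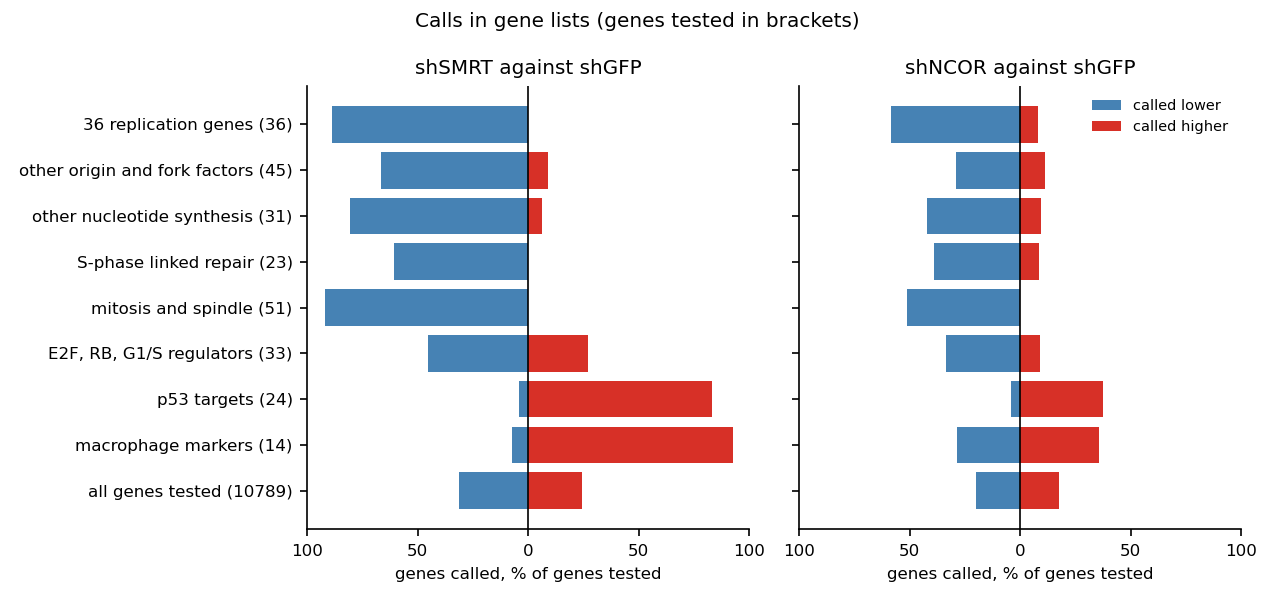
Percentage of tested genes called lower (left of 0) and higher (right of 0) in each list and among all 10789 tested genes, in shSMRT against shGFP cells and in shNCOR against shGFP cells. The 36 replication genes and the mitosis list show mostly lower calls, and the p53 targets and macrophage markers mostly higher calls in shSMRT cells.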

How the data were processed

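RNA values are reads per kilobase of exon per M reads (RPKM) that the authors deposited, made per the file headers with HOMER's analyzeRepeats on mm10 exons with both strands counted and isoforms condensed. The column names say FPKM, but the command in the header gives RPKM. Reads of overlapping or antisense genes cannot be told apart. ATAC-seq values are read signal per peak scaled to 10 M reads, deposited by the authors and made per the file headers with HOMER's annotatePeaks on 1 merged mm10 peak list. Decimal commas were read as points, and 1 of 51984 peaks had a cell without a number and was dropped. The submitters' processing notes also name Bowtie2, HISAT2, MACS2, DESeq2 and the build mm9, without versions or their steps. Groups follow the sample titles; for ATAC-seq the labels' protocol speaks of wild-type cells while the titles name the hairpins.

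Values were tested with limma 3.58.1 in R 4.3.3 (empirical Bayes with a mean trend, all 9 libraries of an assay in 1 fit, Benjamini-Hochberg adjustment over all features, threshold 0.05). RNA was taken as log2(RPKM + 1), with 10789 genes kept that reached 1 RPKM in 3 libraries, and 9005 of 25124 genes were at 0 throughout. ATAC was log2(value + 5) for the 51469 peaks with at least 10 in 3 libraries. Such fold changes understate the change of low genes. Depths are 39.1 to 49.1 M reads for RNA and 6.06 to 10.84 M for ATAC, recovered from the step size of low values, of which 100.0% were whole within 0.1 read. Replicates differed beyond counting error (chi-square per feature 3.69 to 10.45 for RNA and 1.65 to 1.94 for ATAC). Fits were tested on simulated data. Alternatives were other pseudocounts, filters, quantile and median ratio scaling, array weights, limma voom, fits of 6 libraries, a replicate block, a 10 kb window and leaving out each library. Same-numbered libraries did not deviate together (correlations between -0.06 and 0.105 for RNA and between -0.043 and 0.022 for ATAC), so replicate numbers were not treated as pairs.

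The 36 genes and the other gene lists, of whose 275 symbols 1 was not in the table, were chosen with earlier results of these data known. All 36 genes are described. Genes of other lists are named by the size of their change among called genes, at most 4 per list and comparison, and distal peaks likewise, except where the text says otherwise. SMRT's own transcript is not reported here. Coordinates are those of the deposited tables on mm10. Promoter sequences are RefSeq's on GRCm38.p6.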

Additional observations from a re-analysis of the deposited data

How the results depend on the processing

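Of the member genes' RNA calls, 26 of 32 in shSMRT against shGFP cells, 18 of 24 in shNCOR against shGFP cells and 17 of 21 in shSMRT against shNCOR cells were kept in each of 19 alternative settings, but of the peak calls only 4 of 21, 0 of 10 and 2 of 35. Under quantile normalization and under median ratio scaling 1 of the 36 genes was called higher in shSMRT against shNCOR cells, against 0 as deposited (Pcna at 0.13 and Prim2 at 0.11). Peak counts moved with the scaling. In shSMRT against shGFP cells the 21 peaks called became 9 under quantile normalization, 11 under median ratio scaling and 10 under limma voom, and the 15 lower promoter peaks 3, 5 and 5. Lower calls were 9.09%, 11.4% and 10.2% of the 88 peaks, against 6.52%, 5.88% and 6.48% of all tested peaks. Between the knockdowns the 35 called became 11, 14 and 6 and the 22 lower promoter peaks 1, 6 and 5. Lower calls there were 12.5%, 15.9% and 6.82% of the 88, against 4.66%, 6.77% and 4.39%. In shNCOR against shGFP cells the 10 called became 6 under quantile normalization and 2 in a window of 10 kb. Under quantile normalization 2.27% of the 88 were higher and 4.55% lower, against 3.19% and 3.92% of all tested peaks. Values that changed sign under quantile normalization, and were then not called, were the peaks of Gins2 at 24928 bp and of Pcna at 145 bp in shSMRT against shNCOR cells (0.05 each) and Supt16 RNA in shSMRT against shGFP cells (0.04, adjusted p = 0.156 by limma). The cause was not tested.

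Leaving out each library in turn gave 30 to 32 RNA calls in shSMRT, 20 to 23 in shNCOR and 20 to 21 between the knockdowns. Lower calls numbered 30 to 32, 18 to 21 and 20 to 21, and higher calls 0 to 0, 1 to 2 and 0 to 0, with 1 in shNCOR cells without shGFP replicate 1. Peaks called numbered 9 to 22, 2 to 11 and 26 to 35, lower promoter peaks 5 to 15, 0 to 0 and 15 to 22, and higher ones 0 to 0, 0 to 2 and 0 to 0. With the replicate number as a block, lower promoter peaks were 12 in shSMRT against shGFP cells and 22 between the knockdowns, and Cdc6 RNA in shNCOR cells was called (adjusted p = 0.0496 by limma). The planned edgeR fit of the ATAC-seq reads was not run, and limma voom, chosen after seeing the data, took its place. The 3 libraries a group, at 6.06 to 10.84 M ATAC reads each, bound the precision at single peaks, and the smallest detectable difference was not measured.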
